A study of Mus musculus with 6 samples.

Results

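The BCL2 family decides whether a cell opens its mitochondria and dies, and 10 of its transcripts were followed here in an anti-FLAG RNA immunoprecipitation (IP) of LIN28B from cultured mouse B cell precursors. The 10 members, found by exact gene symbol, were 10 of the 54752 genes in the deposited values. Each had 1 row, and all 10 passed the minimum of a mean of 1 FPKM (fragments scaled by transcript length and by the mapped fragments of the library) over the 3 inputs that 12576 genes passed. From 2 tet-LIN28B mice and 1 control littermate, the input (RNA of the whole lysate) and the IP were sequenced, 6 libraries in all, and the question was which transcripts co-purify with LIN28B. The tet-LIN28B mice carried a Col1a tetO-LIN28B allele, encoding a Flag-tagged human Lin28b cDNA under a doxycycline (Dox) responsive promoter, and a Rosa26 rtTA-m2 transactivator. The control carried the transactivator without the LIN28B allele. Bone marrow of adult mice of both genotypes, depleted of red and adherent cells, was kept in culture for 5 days. The medium held 20 ng/mL of IL-7, and the controls also received Dox. Its dose is unsettled, since the labels give 0.1 mg/mL and the methods give the same figure in µg/mL. LIN28B was thus expressed in culture from a transgene that is not limited to B cells, and the human cDNA is not what the mouse Lin28b row measures.

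Proteins of the family fall into 3 groups. BCL2, BCL-XL (encoded by Bcl2l1) and MCL1 hold the outer mitochondrial membrane closed. The BH3-only proteins BIM (Bcl2l11), BID, BAD, NOXA (Pmaip1) and PUMA (Bbc3) sense stress or growth factor loss and bind the pro-survival proteins or the effectors. The effectors BAX and BAK1 form the pores that release cytochrome c. In B cell precursors IL-7 signalling maintains survival, and loss of the balance between MCL1 or BCL2 and BIM is a known route of death at these stages.

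LIN28 proteins bind RNA through a cold shock domain and a pair of zinc knuckles, and the zinc knuckles are known to contact GGAG. That word was searched on the transcript strand of the main transcript of each gene (the longest coding sequence), counting overlapping matches. GGAG occurred in 99.8% of the main transcripts of 10473 tested protein-coding genes and in 16.5% of their 30-base windows. Below are the 30 coding bases with the most matches, or the first such 30 on a tie. They are given for Bcl2l1, which had the highest mean IP/input ratio of the family in tet-LIN28B. Bid, Bad and Bax follow, which were depleted from the tet-LIN28B IP, and then Bbc3, which was the densest in GGAG of the 10. Sequences are from GRCm38 (mm10) with GENCODE M21 models, 5′ to 3′, with every GGAG in capitals.
Bcl2l1, chr2:152829961-152829990, minus strand: atgtctcagagcaaccgGGAGctggtggtc
Bid, chr6:120900271-120900300, minus strand: agctctggctgtactcgccaagagctGGAG
Bad, chr19:6950690-6950719, plus strand: accgaGGAGgatgaagggatGGAGGAGGAG
Bax, chr7:45466746-45466775, minus strand: atggacgggtccggGGAGcagcttgGGAGc
Bbc3, chr7:16313719-16313748, plus strand: gccccgGGAGtgcgtgtGGAGGAGGAGGAG
The windows of Bad and Bbc3 held runs of overlapping matches, 4 and 5 in all, whereas those of Bcl2l1 and Bid held 1 each. The whole coding sequences of Bcl2l1 and Bid held 10 and 4 matches, so their windows are the first of several that tied.

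The density of GGAG over the main transcript was 18.2 per kb in Bbc3, 15.8 in Bad, 12.7 in Bax and 10.5 in Bcl2l1, against a median of 6.97 per kb over the 10473 genes. Bak1 had 7.54 per kb, Mcl1 7.02, Bcl2 6.40, Pmaip1 5.87, Bid 5.38 and Bcl2l11 4.17. The members dense in GGAG thus included Bad and Bax, which were depleted from the tet-LIN28B IP, and Bcl2l1, which was enriched. Bax and Bcl2l1 went the same way in the control, with IP/input ratios of 0.649 and 2.22. Across the 10473 genes, which share the same 3 mice, Spearman's rho between GGAG density and the log2 IP/input ratio was -0.0038 in tet-LIN28B mice, against 0.085 in the control. With the difference in that ratio, tet-LIN28B minus control, rho was -0.051. A match of these letters is a description of the sequence and not a binding site.

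Library depth, estimated from the whole-number steps of low FPKM values in genes with 1 transcript, lay between 14.1 and 21.5 M fragments. Between 87.4% and 89.4% of these values came within 0.15 of a whole fragment. The size of the step was chosen in each library to make this share largest, so the share is not an independent check. All 12 B cell precursor markers were at 1 FPKM or more in the inputs, and their summed level was 11187 and 13695 FPKM with tet-LIN28B and 14251 FPKM without. Markers of other cells were measured too. All 8 myeloid markers passed 1 FPKM, with sums of 7431 and 4647 FPKM with tet-LIN28B and 6399 FPKM without. Most of these sums came from 2 genes, S100a8 and S100a9. In tet-LIN28B mouse 1, mouse 2 and the control, S100a8 held 2988.81, 1847.56 and 2667.23 FPKM. For S100a9 the values were 3770.24, 2355.44 and 3334.67 FPKM. T and NK markers passed in 4 of 7 cases, with sums of 56.0, 16.7 and 15.4 FPKM. Of the erythroid and megakaryocyte markers 4 of 5 passed, with 836, 457 and 452 FPKM, and of the stromal and endothelial markers only Pecam1 did. In such bulk samples, fewer cells of a type and less RNA per cell cannot be told apart.

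**Figure D1:**
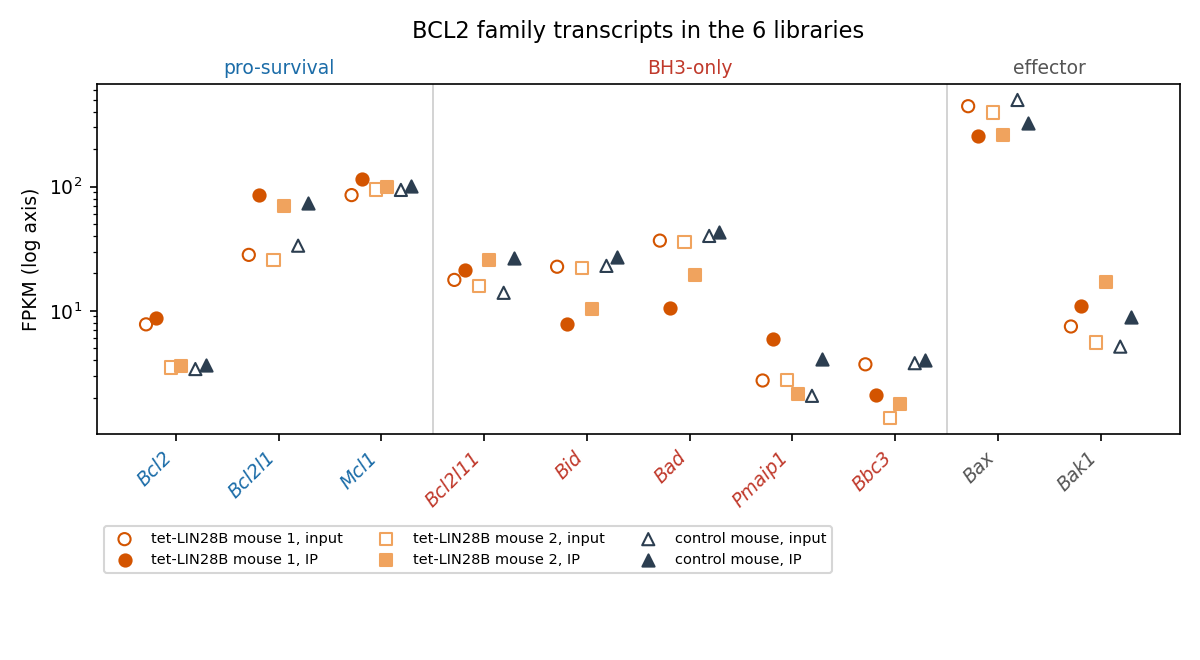
FPKM on a log axis of the 10 BCL2 family transcripts, grouped by role. Open symbols are inputs and filled symbols IPs of the 2 tet-LIN28B mice (circles and squares) and the control mouse (triangles). Bax is the most abundant in every library, and the filled symbols of Bid and Bad lie below the open ones in the tet-LIN28B mice only.

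In the inputs, where FPKM is a level per length of transcript, the family was dominated by 1 effector and 1 pro-survival gene. The order by mean input was Bax (445 FPKM), Mcl1 (91.3), Bad (37.5), Bcl2l1 (29.1), Bid (22.6), Bcl2l11 (15.8), Bak1 (6.06), Bcl2 (4.89), Bbc3 (2.96) and Pmaip1 (2.53). From Bax to Bak1 the ranges over the 3 mice did not overlap between neighbours, but those of Bak1 and Bcl2, of Bcl2 and Bbc3, and of Bbc3 and Pmaip1 did. Bax lay above 96.4% of the tested genes and Pmaip1 above 17.8%. Bcl2l1 encodes the more abundant transcript of the pair of closest pro-survival relatives, with 28.19, 25.80 and 33.42 FPKM against 7.78, 3.50 and 3.40 FPKM for Bcl2 (tet-LIN28B mouse 1, tet-LIN28B mouse 2, control).

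None of the 10 inputs differed between tet-LIN28B and control in limma (adjusted p from 0.835 to 0.960). Over all 12576 genes 0% passed in either direction, and 680 genes but 0 members had an unadjusted p under 0.05. The largest log2 differences in the family were those of Bbc3 (-0.52 ± 0.53, SE) and Bcl2 (0.51 ± 0.51, SE), and in each 1 tet-LIN28B mouse lay close to the control (3.71 against 3.79 FPKM for Bbc3, 3.50 against 3.40 FPKM for Bcl2). For Bcl2l1 the difference was -0.30, with a 95% interval from -0.74 to 0.14, and for Mcl1 -0.06, with an interval from -0.50 to 0.37. With 2 mice against 1, no tested gene was called, whatever the size of its difference. The absence of a call therefore does not show equal levels. The single high Bcl2 input, that of tet-LIN28B mouse 1, came with the highest marker sums of the 3 inputs for T and NK, erythroid and megakaryocyte, and myeloid cells. Cd3e was at 9.13 against 2.15 and 2.56 FPKM, and the platelet factor gene Pf4 at 770.54 against 416.26 and 427.80 FPKM. Some markers of these lists were not highest there, such as Cd4 (0.67 against 0.73 and 0.24 FPKM) and Hbb-bt (1.64 against 2.14 and 4.47 FPKM). The part of other cells in the Bcl2 level was not tested.

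Within each mouse the IP was set against its own input as log2((IP + 1)/(input + 1)), which understates changes of low transcripts. In tet-LIN28B mice 2 members were higher in the IP than in the input, Bcl2l1 and Bak1, and 3 were lower, Bid, Bad and Bax, at an adjusted p under 0.05 in limma. Bcl2, Mcl1, Bcl2l11, Pmaip1 and Bbc3 did not pass. Over all tested genes 13.9% were called higher and 31.0% lower, so these counts of 10 were close to the background. The median of the 10 members was 0.17 on the log2 scale, beside -0.32 over all tested genes. Because the ratios of all genes were centred below 0 in the tet-LIN28B mice (medians of -0.38 and -0.23) and near 0 in the control (0.04), values relative to each mouse's median are given as well. Centring moved the split over all genes from 1750 higher and 3900 lower to 2908 and 2979.

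**Figure D2:**
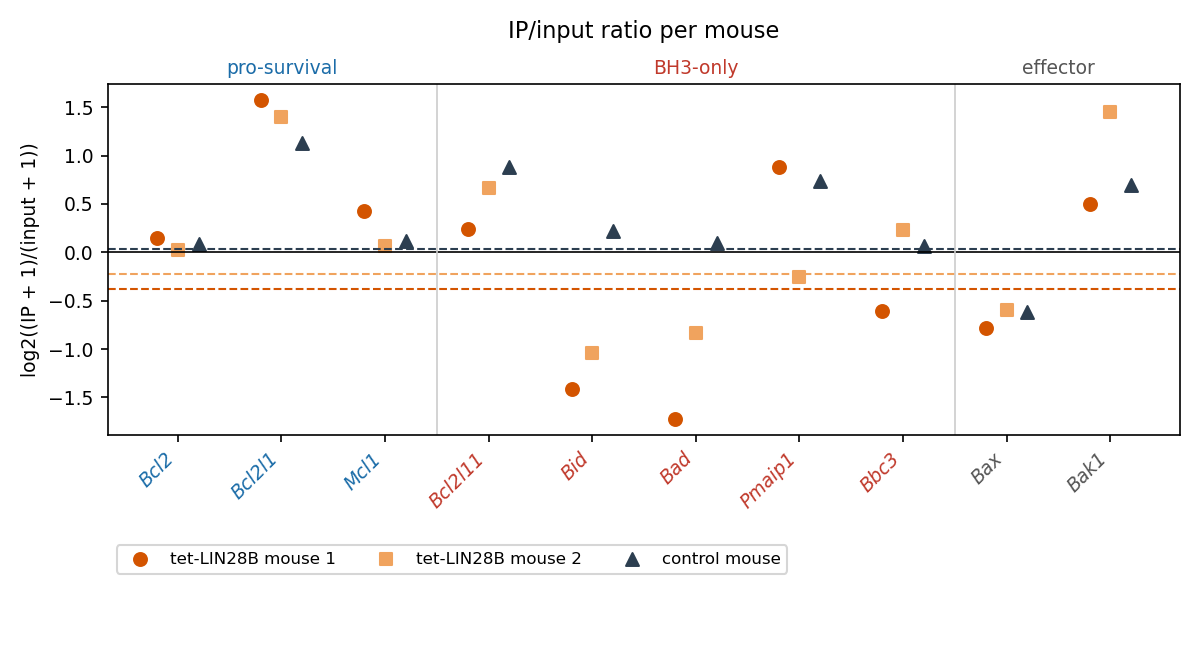
log2((IP + 1)/(input + 1)) of each BCL2 family transcript in the 2 tet-LIN28B mice (circles and squares) and the control mouse (triangles); dashed lines in the same colours mark the median of all tested genes in that mouse. Bid and Bad are below 0 in both tet-LIN28B mice and above 0 in the control, while Bcl2l1 is the highest of the 10 in the control and in tet-LIN28B mouse 1.

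Among the pro-survival genes, Bcl2l1 was the most enriched of the family. It lies on chromosome 2 (chr2:152780668-152831728, minus strand), and none of its exons overlaps another gene. Its level went from 28.19 FPKM in the input to 85.89 in the IP of tet-LIN28B mouse 1, from 25.80 to 69.87 in mouse 2 and from 33.42 to 74.25 in the control. All 3 IPs were above all 3 inputs. The IP/input ratio was 2.88 ± 0.239 (SD, n = 2) for tet-LIN28B, against 2.22 for the control. On the log2 scale the tet-LIN28B enrichment was 1.49 (95% interval 1.06 to 1.92, adjusted p = 0.00497, limma), or 1.79 relative to the median gene. Bcl2l1 lay above 97.7% of tested genes with tet-LIN28B and above 96.6% without. The difference between tet-LIN28B and control was 0.36 ± 0.28 (SE, 95% interval -0.39 to 1.11, adjusted p = 0.441). Relative to the median gene it was 0.70 (adjusted p = 0.213, limma). An anti-FLAG enrichment of Bcl2l1 was thus also present without the transgene. An added share cannot be told from none, up to 1.11 on the uncentred log2 scale.

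Mcl1, whose protein is short-lived and required throughout B cell development, lies at chr3:95658788-95663176 on the plus strand. It measured 85.31, 94.67 and 93.91 FPKM in the inputs (tet-LIN28B mouse 1, mouse 2, control) and 114.99, 98.96 and 101.91 FPKM in the IPs. Every IP was above every input, by little in 2 of the 3 mice. The ratio was 1.20 ± 0.214 (SD, n = 2) in tet-LIN28B and 1.09 in the control, and neither the enrichment (log2 0.24, adjusted p = 0.303, limma) nor the difference from the control (0.13, adjusted p = 0.802) passed. Relative to the median gene they were 0.55 (adjusted p = 0.0779) and 0.47 (adjusted p = 0.423), and neither passed.

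Bcl2 (chr1:106538178-106714274, minus strand) had an FPKM in each IP close to that of its input. The IPs held 8.73, 3.58 and 3.66 FPKM, and the ratios were 1.12, 1.02 and 1.08 (tet-LIN28B mouse 1, mouse 2, control). The spread between the tet-LIN28B mice enclosed the control. The log2 difference from the control was 0.0040, with a 95% interval from -0.91 to 0.91. Relative to the median gene the tet-LIN28B enrichment was 0.39 (adjusted p = 0.152, limma) and the difference 0.35 (adjusted p = 0.531). Of its exonic bases 6.09% overlap D630008O14Rik on the other strand, and since the library kit does not keep strand, reads there cannot be assigned to either gene.

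The largest differences between tet-LIN28B and control in the family were those of the BH3-only genes Bid and Bad. All 5 BH3-only genes had a lower log2 ratio in the tet-LIN28B mean than in the control, except that Bbc3 turned to 0.09 higher relative to the median gene. In Bid, Bad and Bcl2l11 both tet-LIN28B mice were below the control mouse, as were both in 7540 of the 12576 genes. Bid, cleaved by caspase-8 to carry death receptor signals to mitochondria, had nearly equal inputs of 22.63, 22.23 and 22.99 FPKM. Its IPs held 7.87 and 10.26 FPKM with tet-LIN28B but 26.92 FPKM without. The tet-LIN28B IPs were below all inputs, and the control IP was above them.

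The IP/input ratio of Bid was 0.405 ± 0.0804 (SD, n = 2) in tet-LIN28B and 1.17 in the control. The log2 depletion in tet-LIN28B was -1.23 (95% interval -1.73 to -0.73, adjusted p = 0.0100, limma), or -0.92 relative to the median gene. The difference from the control was -1.45 ± 0.33 (SE), with a 95% interval from -2.32 to -0.58. Over all genes its adjusted p was 0.0776, so it was not called, and with genes of at least 5 FPKM alone it was, at an adjusted p of 0.0424. Relative to the median gene the difference was -1.11 (adjusted p = 0.0921). Bid (chr6:120891930-120916853, minus strand) shares 17.7% of its exonic bases with Bcl2l13 on the other strand, whose own ratios were 0.731, 1.45 and 1.52 (tet-LIN28B mouse 1, mouse 2, control).

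Bad, which growth factor signalling keeps phosphorylated and inactive, behaved much as Bid did. Inputs were 36.71, 35.62 and 40.04 FPKM, and IPs were 10.45 and 19.52 FPKM with tet-LIN28B and 42.87 FPKM without. The 2 tet-LIN28B IPs were below all inputs, and the control IP was above them. The ratios were 0.285, 0.548 and 1.07, a mean of 0.416 ± 0.186 (SD, n = 2) in tet-LIN28B. The depletion in tet-LIN28B was -1.28 on the log2 scale (95% interval -1.98 to -0.58, adjusted p = 0.0200, limma). The difference from the control was -1.37 ± 0.46 (SE, 95% interval -2.58 to -0.17, adjusted p = 0.137), and -1.03 relative to the median gene. Bad (chr19:6941861-6951899, plus strand) shares 20.5% of its exonic bases with Gpr137 on the other strand.

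Bcl2l11 encodes BIM, the BH3-only protein held most directly responsible for lymphocyte death on cytokine loss. Its inputs were 17.73, 15.86 and 13.96 FPKM and its IPs 21.11, 25.73 and 26.56 FPKM (tet-LIN28B mouse 1, mouse 2, control), so every IP was above every input. The ratio was 1.41 ± 0.305 (SD, n = 2) in tet-LIN28B and 1.90 in the control. Its enrichment in tet-LIN28B was 0.45 on the log2 scale and not called (adjusted p = 0.122, limma), but relative to the median gene it was 0.76 and passed (adjusted p = 0.0222). In the control it lay above 93.3% of genes, and the difference between genotypes was -0.43 (adjusted p = 0.441) or -0.09 relative to the median gene. Bcl2l11 lies at chr2:128126038-128162547 on the plus strand.

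The p53 targets Pmaip1 and Bbc3 were the rarest members, with an estimated 94 to 213 and 39 to 127 fragments per library, and the tet-LIN28B mice disagreed. Pmaip1 (chr18:66458533-66465565, plus strand) had ratios of 2.15 and 0.775 with tet-LIN28B and 1.99 without. Bbc3 (chr7:16308393-16318205, plus strand) had 0.563 and 1.30 with it and 1.06 without. In both, 1 tet-LIN28B mouse lay on each side of 1 and of the control. The counting error at the lowest of these values, that of 1 library, was 16.0% for Bbc3 and 10.3% for Pmaip1. A ratio carries the errors of both its IP and its input. The part of counting error in the disagreement between the mice was not tested. Neither enrichment passed (adjusted p = 0.486 and 0.619, limma).

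The effectors moved in opposite directions from input to IP, in tet-LIN28B and in the control alike. Bax (chr7:45461697-45466898, minus strand) measured 442.88, 394.36 and 497.03 FPKM in the inputs and 257.09, 260.28 and 322.76 FPKM in the IPs (tet-LIN28B mouse 1, mouse 2, control). All IPs were below all inputs. The ratio was 0.620 ± 0.0562 (SD, n = 2) in tet-LIN28B and 0.649 in the control, a log2 depletion of -0.69 (95% interval -1.11 to -0.27, adjusted p = 0.0266, limma) that relative to the median gene was -0.39 and not called (adjusted p = 0.119). Its rank was higher in tet-LIN28B than in the control, above 35.3% and 9.64% of genes. The difference from the control was -0.07 (95% interval -0.80 to 0.66), and 0.27 relative to the median gene, so its sign depended on the centring. Of its exonic bases 12.2% overlap Gm45808 on the same strand, which could take part of its reads.

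Bak1 (chr17:27019810-27029009, minus strand) had inputs of 7.48, 5.56 and 5.15 FPKM and IPs of 11.01, 16.90 and 8.96 FPKM. Every IP was above every input, but the ratio was 1.47 in tet-LIN28B mouse 1 and 3.04 in mouse 2, with 1.74 in the control between them. The log2 enrichment in tet-LIN28B was 0.98 (95% interval 0.22 to 1.73) with an adjusted p of 0.0494 in limma, the closest of the called members to the threshold, and that call was lost without the trend or with a smaller pseudocount. The difference from the control was 0.28 ± 0.50 (SE, adjusted p = 0.734), and 0.62 relative to the median gene (adjusted p = 0.394). Bak1 shares 25.5% of its exonic bases with Ggnbp1 on the other strand.

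**Figure D3:**
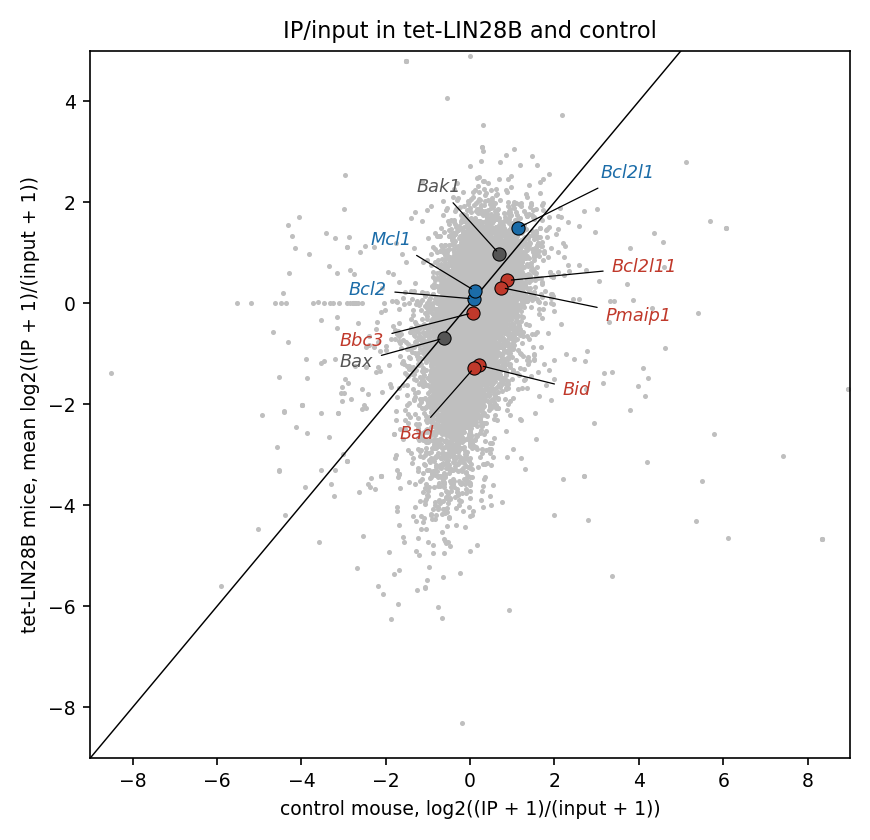
Mean log2((IP + 1)/(input + 1)) of the 2 tet-LIN28B mice against that of the control mouse for 12576 tested genes (grey) and the 10 members, coloured by role, with the line of equal values. Bid and Bad lie about 1.4 below the line, Bax lies on it, and Bcl2l1 is high on both axes.

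Across the family, 0 members were called in either direction between tet-LIN28B and control by limma, beside 0.382% of all genes called higher and 2.53% called lower. At an unadjusted p under 0.05 there were 2 of the 10 members, Bid and Bad, and 3730 of the 12576 genes. Centring on the median changed the calls over all genes from 48 higher and 318 lower to 68 and 188. The median difference of the 10 members was -0.16, and that of all genes was -0.39. By role, the 3 pro-survival genes had a median difference of 0.13, the 5 BH3-only genes -0.43 and the 2 effectors 0.11. Relative to the median gene the first of these was 0.47 and the second -0.09.

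Summed over roles, the family's makeup shifted between input and IP in all 3 mice. Pro-survival transcripts made up 18.5%, 20.6% and 18.3% of the summed FPKM of the 10 members in the inputs of tet-LIN28B mouse 1, mouse 2 and the control, and 39.9%, 33.9% and 29.2% in their IPs. The effector share, nearly all Bax, went from 68.7%, 66.5% and 70.2% to 51.1%, 54.5% and 53.8%. The BH3-only share was 12.7%, 12.9% and 11.6% in the inputs. In the IPs it was 9.03% and 11.7% with tet-LIN28B, below their inputs, and 17.0% in the control, above its input. These shares are a description, since most of the sums come from Bax, Mcl1, Bcl2l1 and Bad.

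**Figure D4:**
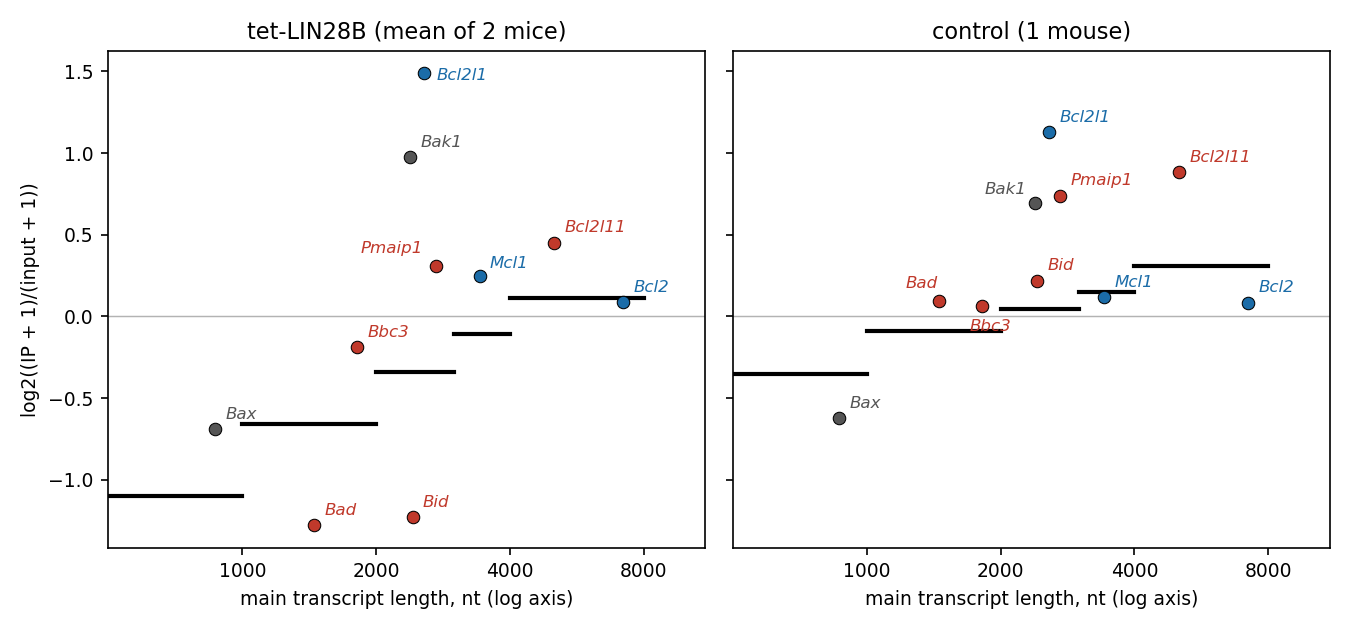
log2((IP + 1)/(input + 1)) of the 10 members against the length of the main transcript (log axis), for the mean of the 2 tet-LIN28B mice (left) and the control mouse (right); black bars are medians of tested genes in 5 length bins, the last from 4000 nt up. The medians climb with length in both panels, Bid and Bad lie under their bins in tet-LIN28B and above them in the control, and Bcl2l1 lies above its bin in both.

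Transcript length moved with these ratios. Over the 10473 genes, Spearman's rho between the length of the main transcript and the log2 ratio was 0.369 in tet-LIN28B and 0.406 in the control. The median ratio went from -1.10 in the 1022 genes under 1000 nt to 0.11 in the 2912 genes of at least 4000 nt in tet-LIN28B, and from -0.35 to 0.31 in the control. Bax has the shortest main transcript of the family, 867 nt, and its ratio of -0.69 lay above the tet-LIN28B median of its bin and its -0.62 below that of the control. Bad (1452 nt) and Bid (2415 nt) lay in bins with medians of -0.66 and -0.34 in tet-LIN28B, against their own -1.28 and -1.23. For the difference from the control the bin medians were -0.55 and -0.41, against -1.37 and -1.45. Bcl2l1 (2568 nt) shared the bin of Bid. The part of length in the members' values was not tested.

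The rest of the pathway was described from 3 lists of textbook genes. Of the 14 other BCL2 family genes 9 passed the minimum level, and in tet-LIN28B 0 were called higher and 4 lower in the IP, namely Bcl2a1a, Bcl2a1b, Bcl2a1d and Bcl2l12, beside 13.9% and 31.0% of all tested genes. Relative to the median gene 2 were higher, Bok and Bmf, and 3 lower, since Bcl2a1a was lost, beside 2908 and 2979 of all 12576 genes. The control ratios of Bcl2a1a, Bcl2a1b and Bcl2a1d were below 1 as well (0.296, 0.416 and 0.717). The A1 genes are near-identical copies, so how reads were divided among them is uncertain. Bcl2l12, an atypical relative linked to p53 and caspase control, had ratios of 0.335 and 0.371 in tet-LIN28B and 1.44 in the control. Its difference of -1.93 ± 0.29 (SE) had an adjusted p of 0.0514 in limma, so it was not called. Bik, a BH3-only gene of low level, differed by -1.25 (adjusted p = 0.181), and the highest differences of the list were 0.28 for the BH3-only gene Bmf and 0.11 for Bcl2a1b. None of the 9 was called against the control, but 1 was called lower with genes of at least 5 FPKM, with a pseudocount of 5 or with TPM. An unadjusted limma p under 0.05 was found in 2 of the 9, beside 3730 of all 12576 genes. The median difference of the 9 was -0.47.

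Of the 22 genes of mitochondrial release, the apoptosome and the caspases, all were tested, 3 were higher in the tet-LIN28B IP and 5 were lower, beside 13.9% and 31.0% of all tested genes. The balance depended on the setting. Relative to the median gene 7 were higher and 4 lower, beside 2908 and 2979 of all 12576 genes. With genes of at least 5 FPKM these counts were 4 and 8, beside 1600 and 3249 over all genes kept. Those higher included Apaf1, the scaffold of the apoptosome, and Birc2, which encodes the ubiquitin ligase cIAP1. Those lower included Casp6, Endog, Vdac3 and Dffa, whose control ratios were 0.597, 0.705, 0.897 and 1.13. Apaf1 had ratios of 3.07 and 2.35 in tet-LIN28B and 1.52 in the control, the highest difference of the list (0.81 ± 0.32, SE, adjusted p = 0.177, limma), followed by Birc2 (0.77, adjusted p = 0.225). The lowest were Vdac3, a channel of the outer mitochondrial membrane (-1.08, adjusted p = 0.0880), and Casp2 (-1.06, adjusted p = 0.124). None of the 22 was called against the control, but 1 was called lower under the 50 FPKM filter. An unadjusted limma p under 0.05 was found in 2 of the 22, beside 3730 of all 12576 genes. The median difference of the 22 was -0.23.

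Of the 18 regulators of the family, 4 were higher in the tet-LIN28B IP and 4 were lower, beside 13.9% and 31.0% of all tested genes. Relative to the median gene 9 were higher and 3 lower, beside 2908 and 2979 of all 12576 genes. Higher were Pim1 and Pim2, cytokine-induced kinases that phosphorylate BAD, Stat5b, which carries IL-7 signals to the nucleus, and Fbxw7, which targets MCL1 for degradation. Lower were Trp53, its target Cdkn1a, Myc and the stress factor Ddit3. Without the transgene the ratios of Trp53, Myc and Ddit3 were below 1 too (0.605, 0.664 and 0.641), while that of Cdkn1a was 1.76. In Pim1, Stat5b and Fbxw7 the control ratio was also above 1 (1.80, 1.93 and 2.16). In Pim2 it was 1.04 against 1.62 and 1.75 in tet-LIN28B, a difference of 0.69 (adjusted p = 0.184, limma). The highest difference was that of Usp9x, which removes ubiquitin from MCL1 (0.75, adjusted p = 0.195), and the lowest were Cdkn1a (-1.66, adjusted p = 0.0797) and Myc (-1.04, adjusted p = 0.193). None of the 18 was called against the control, but 1 was called lower with genes of at least 5 FPKM or under the 50 FPKM filter. An unadjusted limma p under 0.05 was found in 1 of the 18, beside 3730 of all 12576 genes. The median difference of the 18 was -0.21. Between the inputs no gene of the 3 lists was called by limma. Bcl2a1d, Xiap and Cdkn1a, 1 in each list, had an unadjusted p under 0.05 there, beside 680 of all 12576 genes.

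**Figure D5:**
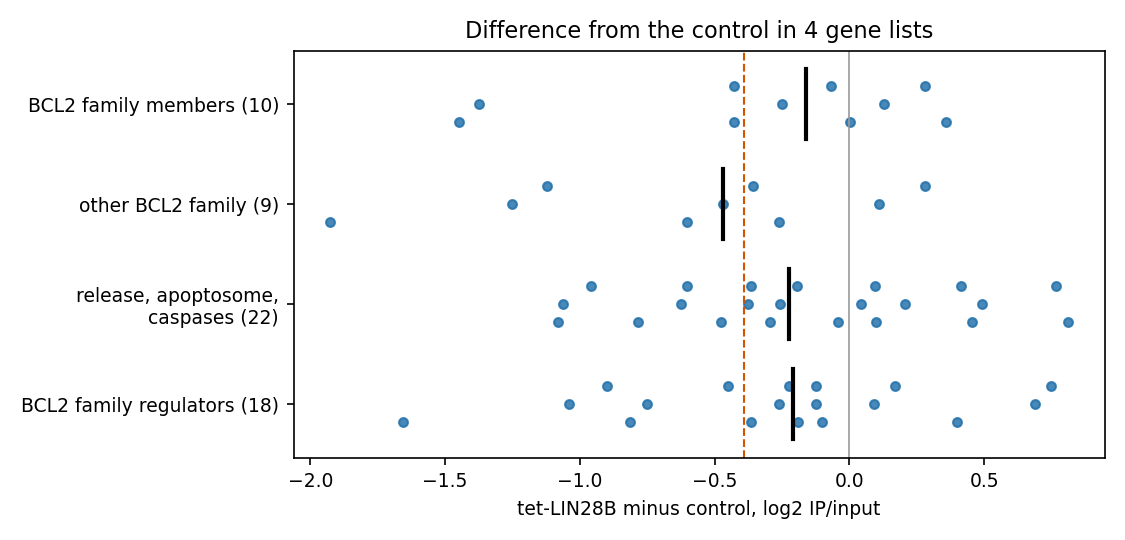
Difference in log2 IP/input ratio, tet-LIN28B minus control, of the 10 members and the tested genes of the 3 pathway lists, 1 point per gene. Black bars are list medians (-0.16, -0.47, -0.23 and -0.21 from top to bottom), and the dashed line is the median of all tested genes, -0.39.

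Bax had the highest mean input of the family, and the genes whose pattern over the 6 libraries was most like it, by Euclidean distance of log2(FPKM + 1) about the gene mean, were Cops2 (distance 0.133), Ccnq (0.160) and Ccdc62 (0.160). Cops2 held 28.46, 26.50 and 30.51 FPKM in the inputs and 15.35, 15.46 and 20.85 FPKM in the IPs.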

How the data were processed

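The 6 libraries, input and anti-FLAG IP from 2 tet-LIN28B mice and 1 control, were analysed. Groups came from the titles and column names, which agree; the last line of each description names the opposite fraction and was not followed. The authors aligned poly-A reads to mm10 with STAR 2.7.1 and deposited RSEM 1.28 FPKM values for 54752 genes, from a kit that keeps no strand; their annotation release: not given in the sources used here. With limma 3.58.1 in R 4.3.3 (trend on the mean, Benjamini-Hochberg, threshold 0.05), log2((IP + 1)/(input + 1)) per mouse was tested where inputs averaged 1 FPKM or more, in tet-LIN28B against 0 and against the control, and inputs were tested on log2(FPKM + 1). The methods' filter of 50 FPKM would keep 2 members, Mcl1 and Bax. Input and IP of 1 mouse are paired through the ratio; their differences between the tet-LIN28B mice correlated at 0.132 across genes. There is 1 residual degree of freedom, and the lone control is taken to vary as tet-LIN28B mice do.

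The members and lists were chosen with earlier results of these data known. All 10 members are named, with the 2 highest and 2 lowest tested genes of each list by difference from the control, genes called in the IP (some are not reported here), and the 3 genes most like Bax. Cd3e, Cd4, Hbb-bt, Pf4, Pecam1, S100a8 and S100a9 were singled out after their values were seen. Positions, lengths, overlaps and sequences are from GENCODE M21. Fragments were estimated on main transcripts and cover counting error only. Fits were tested on simulated data. Filters, pseudocounts, TPM scaling, centring, trend, pairing and left-out mice were varied.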

Additional observations from a re-analysis of the deposited data

How the results depend on the processing

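Bcl2l1, Bid and Bad kept their direction and their call in the tet-LIN28B IP under every alternative tested except without a filter on low values, where 0 members were higher and 0 lower (adjusted p from 0.143 for Bcl2l1 to 0.330 for Bak1 among the 5 otherwise called), and the 50 FPKM filter, which removed them. Under that filter 0 members were higher and 1, Bax, lower. With a pseudocount of 0.1 or without the trend 1 member was higher, since Bak1 was lost (adjusted p = 0.0735 and 0.0576). For the difference from the control, 1 member, Bid, was lower with genes of at least 5 FPKM. Differences near 0 turned: Bcl2 to -0.0054 (pseudocount 0.1) and -0.11 (TPM), Mcl1 to -0.038 (TPM), and, centred on the median, Bbc3 to 0.091, Bax to 0.27 and the tet-LIN28B enrichment of Bbc3 to 0.12. The input difference of Bid turned to 0.0079 with TPM. The causes were not tested.

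Fitted without the replicate block, that is without pairing input and IP of a mouse, 2 members were higher and 3 lower in the tet-LIN28B IP, and 0 members were called against the control, as in the paired fit. Over all genes, calls against the control were 0 higher and 0 lower without the block, without the trend, without a filter or with a pseudocount of 0.1. They were 224 and 1038 with genes of at least 5 FPKM, 176 and 764 with a pseudocount of 5, 92 and 668 with TPM, and 339 and 324 under the 50 FPKM filter. For IP against input they were 0 and 0 without a filter and 522 and 512 under the 50 FPKM filter. Between inputs they were 8 and 0 with genes of at least 5 FPKM, 5 and 3 under the 50 FPKM filter, 0 and 5 with a pseudocount of 5, 4 and 0 with TPM, and 18 and 14 when centred. Leaving out a tet-LIN28B mouse leaves no residual degrees of freedom, so it gives values and no test. With 1 of the mice left out, the difference from the control turned to -0.19 for Bak1, 0.14 for Pmaip1, 0.17 for Bbc3, 0.024 for Bax, -0.053 for Mcl1 and -0.057 for Bcl2, and the tet-LIN28B enrichment turned to 0.23 for Bbc3 and -0.26 for Pmaip1. The input difference of Mcl1 turned to 0.012. Without mouse 1 or mouse 2 the difference from the control was -1.26 or -1.63 for Bid, -0.93 or -1.82 for Bad and 0.27 or 0.45 for Bcl2l1. A single control mouse, 2 tet-LIN28B mice and few fragments of Bbc3 and Pmaip1 limit what can be called.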
